A study of Mus musculus with 4 samples.

Results

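The genes described here are 10 components and targets of the erythropoietin receptor pathway in mouse erythroblasts. They are the receptor gene Epor, its kinase gene Jak2, the transcription factor genes Stat5a and Stat5b, the feedback inhibitor genes Cish, Socs2 and Socs3, the kinase gene Pim1, the cytokine gene Osm and Fam132b, the gene of the hormone erythroferrone. They were picked by symbol as parts of a known pathway, with earlier results of these data known, and all 10 were found among the 23234 genes of the authors' deposited table. RNA sequencing was done on extensively self-renewing erythroblasts (ESREs). These are red cell precursors held at an immature stage, which keep dividing in culture and were first derived from early mouse fetuses. Of the groups, 3 were used: proliferating cells with a non-targeting short hairpin RNA (shRNA), proliferating cells with an shRNA against Setd8, and cells with the non-targeting shRNA placed in maturation media 6 h before RNA collection. They are called here the proliferating control, the knockdown and the maturing control. All 3 groups thus carried an shRNA, and each was 1 library, so no difference has a replicate check. The labels give neither the number of shRNAs tried nor whether a library was pooled from several cultures or animals. Knockdown cells placed in maturation media were not analysed here.

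Erythropoietin is the hormone that keeps red cell precursors alive and dividing. It binds a receptor made by Epor, which carries the kinase Jak2 on its inner side. Active Jak2 phosphorylates Stat5a and Stat5b, which enter the nucleus and bind DNA at a palindrome of TTC and GAA with spacer letters between them. Among the genes that STAT5 switches on are Cish, Socs2 and Socs3, whose proteins bind the receptor or Jak2 and damp the signal, so the inhibitors are commonly read as a record of signalling. Pim1 is a serine/threonine kinase that favours survival, Osm (oncostatin M) a secreted cytokine of the interleukin-6 family, and erythroferrone a hormone from erythroblasts that lowers hepcidin in the liver and so frees iron.

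Promoter sequences were available for 8 of the 10 genes (RefSeq, GRCm38.p6, 250 bases before to 50 after each gene's start, with Fam132b under its current symbol Erfe), in 11 entries. Osm and Socs2 had none there. The STAT palindrome TTCNNNGAA, which reads the same on both strands as a pattern, was found in the windows of Cish and Socs3. Cish held it 2 times in a row, at positions 1 and 12 counted from the annotated start, while 0.457% of all 32851 promoter entries held 2 or more matches and 8.30% held at least 1. The short stretches around these matches are shown because Cish and Socs3 were the inhibitors called higher in the maturing control, with the palindromes in capitals. Fam132b, which was also called higher there, had no palindrome in its window. Cish is at chr9:107296654-107296683 on the plus strand, across the start, and Socs3 at chr11:117969502-117969531 on the minus strand, 165 to 136 bases before the start.
Cish: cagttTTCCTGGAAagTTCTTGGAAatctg
Socs3: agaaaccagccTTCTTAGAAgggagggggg
The receptor gene had no palindrome in its window but had 1 match to the GATA motif (AGATAA or TGATAA, on either strand), which 18.6% of promoter entries held and no other gene of the 8 did. It is shown because the factor Gata2, with a level of 54.9 FPKM in the proliferating control against 129 FPKM in the knockdown, is named in the study's title. The printed run is the 150 bases before the start of Epor, chr9:21963577-21963726 on the minus strand, and the capitals mark the motif, which lies on the opposite strand as printed.
Epor: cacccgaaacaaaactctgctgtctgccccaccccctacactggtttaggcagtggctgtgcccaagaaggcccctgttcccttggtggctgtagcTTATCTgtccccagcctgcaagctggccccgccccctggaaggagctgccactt
A match of letters is a description of the sequence. Binding was not measured in these data, and a gene without a match may have sites outside the window.

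Levels are given in FPKM, which scales fragments to both transcript length and library size, so that genes can be compared with each other. Between 8923 and 9158 genes had 1 FPKM or more per library. Judged from the steps between very low values, the knockdown would be 1.43 times and the maturing control 1.55 times as deep as the proliferating control. This takes such values as single fragments and the libraries as not scaled to each other, and neither was tested. Absolute depth is unknown, so no counting interval is given. Setd8, the targeted methyltransferase gene, checks the label: the proliferating control held 25.1 FPKM, the knockdown 9.28 FPKM and the maturing control 25.9 FPKM. It was called lower in the knockdown with a log2 ratio of -1.43 (q 0.0122) in the authors' deposited table. Here and below, "called" means a q-value of at most 0.05 from the authors' Cuffdiff test, and each standard error (SE) is that of the authors' model, for which the labels name no replicates. Gene positions below are those of the deposited table (mm9), while the sequences above are placed on GRCm38.p6.

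**Figure D1:**
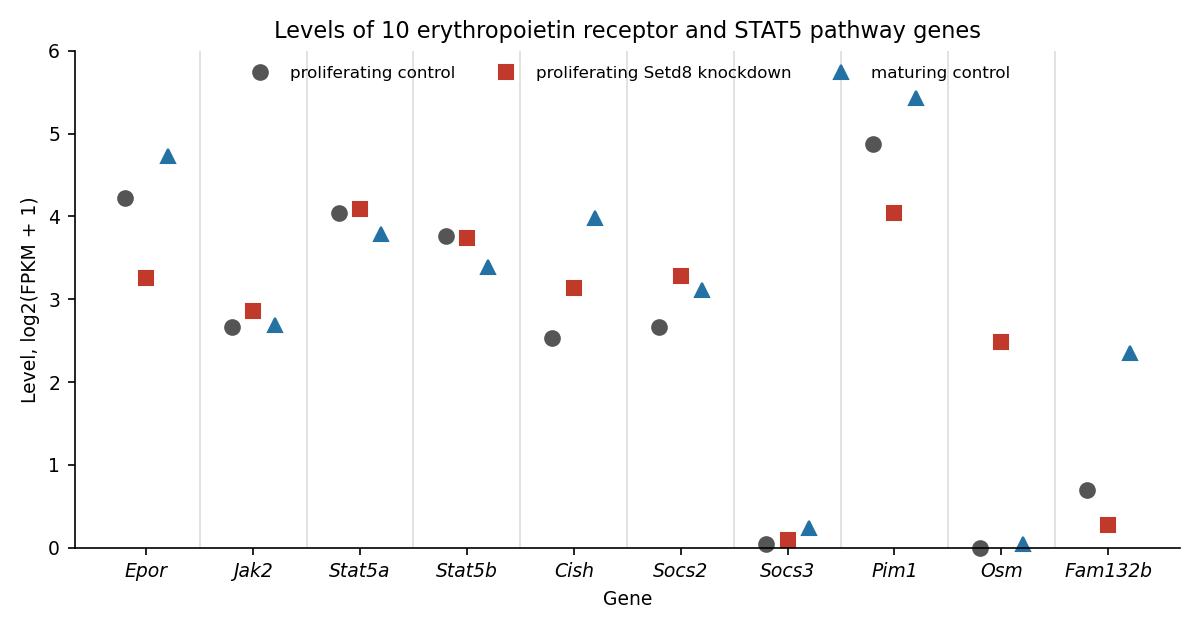
Level of each gene, as log2(FPKM + 1) on the vertical axis, in the 3 libraries (1 point per library, no error bars since each group had 1 library). Jak2, Stat5a and Stat5b have their 3 points close together, Epor and Pim1 are lowest in the knockdown and highest in the maturing control, and Osm stands above 0.1 FPKM in the knockdown library alone.

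In the proliferating control the order of levels ran from Pim1 at 28.4 FPKM through Epor (17.6), Stat5a (15.5), Stat5b (12.6), Jak2 (5.36), Socs2 (5.33) and Cish (4.80) to Fam132b (0.627) and Socs3 (0.0286), with Osm listed at 0. Epor was higher than 81.9%, and Jak2 higher than 46.4%, of the genes with at least 1 FPKM in that library. Neighbours in this order cannot be told apart statistically, since no spread between replicates exists. Of the 10 genes, 7 reached 5 FPKM in some library, Osm and Fam132b reached 1 FPKM but not 5 FPKM, and Socs3 stayed below 1 FPKM in each.

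In the knockdown, 2 of the 9 genes that the authors tested were called: Osm higher and Fam132b lower. Across all 11665 genes tested in this comparison 9.05% were called, 5.81% higher and 3.24% lower. The median log2 ratio of FPKM + 1 over all 10 genes was 0.05, beside -0.05 over the 9612 genes with at least 1 FPKM in some library, and 6 genes had a higher value and 4 a lower one. In the maturing control against the proliferating control, 3 of 9 tested genes were called, all higher: Cish, Socs3 and Fam132b. Here 1.75% of 11298 tested genes were called, 0.584% higher and 1.17% lower. The median over the 10 genes was 0.32 against 0.01 for the 9612 genes, with 8 higher values and 2 lower ones. These comparisons share the proliferating control library, so its errors enter both. The authors also set the knockdown against the maturing control. In that comparison 6 of the 10 genes have rows here and 4 were called, Osm higher and Epor, Pim1 and Fam132b lower, where 11.6% of 9241 tested genes were called, 7.22% higher and 4.38% lower. It mixes the difference in Setd8 with that in media. Its rows as used here cover 19067 of the 23234 genes and break off in alphabetical order within the Slc genes, so these shares leave out genes late in the alphabet, and Stat5a, Stat5b, Socs2 and Socs3 were not analysed in it.

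**Figure D2:**
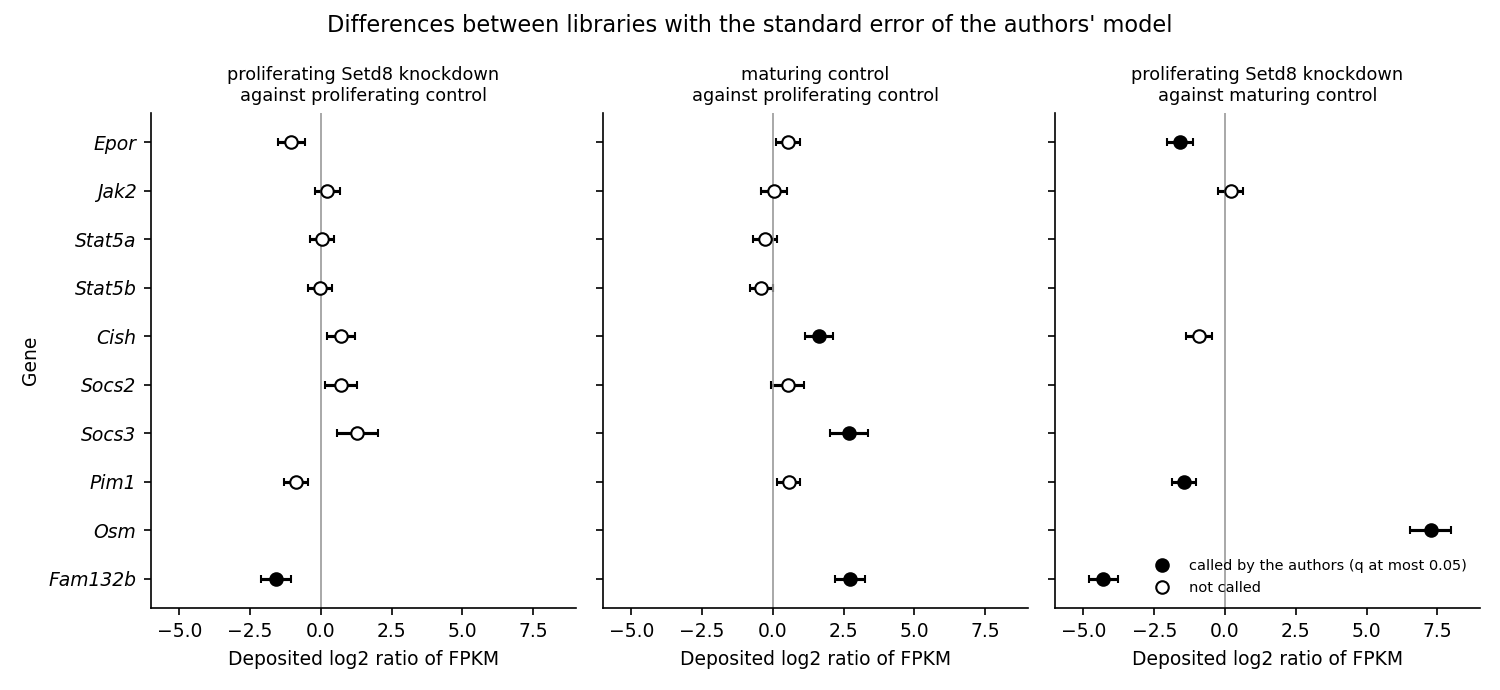
Deposited log2 ratio of FPKM for each gene in the 3 pairs of libraries (horizontal axis), with bars of 1 SE of the authors' model; filled points were called at q of at most 0.05. Osm has a point only against the maturing control, since it was listed at 0 in the proliferating control, and 4 genes have no point in the right panel because the rows used for that pair break off before them.

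Epor (chromosome 9, 21763342 to 21768020, mm9), which encodes the receptor itself, had a level of 17.6 FPKM in proliferating control cells, 8.58 FPKM with the Setd8 shRNA and 25.6 FPKM after 6 h in maturation media. The knockdown library thus held the lowest level and the maturing control library the highest. Its level in the knockdown was 48.7% of that in the proliferating control, a log2 ratio of -1.04 (SE 0.47) which the authors did not call in their deposited table (q 0.239). The difference of the maturing control from the proliferating control, a log2 ratio of 0.54 (SE 0.43), was not called either (q 0.897). Only the pair of the outer levels was called, with an Epor level in the maturing control 2.98 times that in the knockdown (log2 ratio -1.58, SE 0.46, q 0.00984). In whole cultures, fewer cells of a type and less RNA per cell cannot be told apart, here or for any gene below.

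Jak2 (chromosome 19, 29326317 to 29387570), the receptor's kinase, had a level of 5.36 FPKM in proliferating control cells, 6.26 FPKM with the Setd8 shRNA and 5.45 FPKM after 6 h in maturation media. Its 3 levels lay within a narrow band. The deposited log2 ratio was 0.22 in the knockdown, with a 95% interval of the authors' model from -0.64 to 1.09, and 0.02 in the maturing control, with an interval from -0.87 to 0.92. The authors' model leaves room for any change within these bounds, which are not a limit of what it could call.

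Stat5a (chromosome 11, 100720664 to 100746483), which encodes the first of the paired transcription factors, had a level of 15.5 FPKM in proliferating control cells, 16.0 FPKM with the Setd8 shRNA and 12.8 FPKM after 6 h in maturation media. Stat5b (chromosome 11, 100642044 to 100711899), its neighbour, was at 12.6, 12.3 and 9.49 FPKM in the same order of libraries. Both genes stood lowest in the maturing control, and neither was called in any comparison used here. For the knockdown the deposited log2 ratios were 0.05 for Stat5a (95% interval -0.77 to 0.87) and -0.03 for Stat5b (-0.83 to 0.77). For maturation they were -0.27 (-1.10 to 0.55) and -0.41 (-1.21 to 0.40). The 2 genes are similar copies: 15.8% of the 50-base windows of the longest Stat5a coding transcript, and 11.8% of those of Stat5b, also occur in a transcript of the other (GENCODE M21), so a part of the fragments could be split between them either way. Of the other 8 genes only Socs2 shared such windows with another gene, 18.4% of them, with gene models Gm9847 and Gm8000.

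Cish (chromosome 9, 107199019 to 107204292), the SH2-domain inhibitor that docks on the activated receptor, had a level of 4.80 FPKM in proliferating control cells, 7.81 FPKM with the Setd8 shRNA and 14.8 FPKM after 6 h in maturation media. The maturing control stood apart above the other libraries. The authors' deposited table called this rise of 3.09 times, a log2 ratio of 1.63 (SE 0.48, q 0.0121). Against the proliferating control the knockdown was 1.63 times higher and not called (log2 ratio 0.70, SE 0.50, q 0.795), and against the maturing control it was 52.7% of that level and not called (q 0.351). The knockdown level thus lay between the others without being separated from either by the authors' test.

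Socs2 (chromosome 10, 94874123 to 94879491), another SH2-domain inhibitor best known for limiting growth hormone signalling, had a level of 5.33 FPKM in proliferating control cells, 8.74 FPKM with the Setd8 shRNA and 7.63 FPKM after 6 h in maturation media. Both other libraries were above the proliferating control, and neither difference was called: the log2 ratios were 0.72 (SE 0.57, q 0.894) and 0.52 (SE 0.57, q 0.999981). Socs3 (chromosome 11, 117827400 to 117830680), which blocks Jak2 directly, was barely detected, at 0.0286, 0.0701 and 0.183 FPKM in the same order. The authors called its rise with maturation, with a log2 ratio of 2.68 (SE 0.68, q 0.00182), but did not test it in the knockdown. On the log2 scale of FPKM + 1 that rise is only 0.20, since every level was below 1 FPKM. Of the 3 inhibitors, Cish thus had the largest difference in FPKM between the control libraries.

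Pim1 (chromosome 17, 29627989 to 29632404), the survival kinase and the most abundant of the 10 transcripts in each library except the knockdown, had a level of 28.4 FPKM in proliferating control cells, 15.5 FPKM with the Setd8 shRNA and 41.9 FPKM after 6 h in maturation media. Like the receptor gene, it was lowest in the knockdown and highest in the maturing control. Neither step from the proliferating control was called: the log2 ratio was -0.88 in the knockdown (SE 0.43, q 0.344) and 0.56 in the maturing control (SE 0.41, q 0.821). The maturing control held 2.71 times the level of the knockdown, and the authors' deposited table called this difference (log2 ratio -1.44, SE 0.43, q 0.0127). In the knockdown, Stat5a at 16.0 FPKM stood beside Pim1 at 15.5 FPKM.

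Fam132b (chromosome 1, 93263006 to 93270794), the erythroferrone gene, had a level of 0.627 FPKM in proliferating control cells, 0.209 FPKM with the Setd8 shRNA and 4.11 FPKM after 6 h in maturation media. It was the gene of the 10 called in each of the 3 comparisons. The knockdown held 33.4% of the proliferating control level (log2 ratio -1.58, SE 0.54), a call close to the threshold at a q of 0.0466. The maturing control held 6.56 times that level (log2 ratio 2.71, SE 0.52, q 9.33e-06). Between the outer libraries the level differed 19.7 times, with a log2 ratio of -4.30 (SE 0.52, q 3.42e-14).

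Osm (chromosome 11, 4136787 to 4141029), the cytokine gene, was listed at 0 in proliferating control cells, and had a level of 4.61 FPKM with the Setd8 shRNA and of 0.0301 FPKM after 6 h in maturation media. The knockdown library was the sole one with more than a trace. The authors' deposited table called it higher against the proliferating control (q 0.00154), for which no fold is given since the control is listed at 0. Against the maturing control it gave a log2 ratio of 7.26 (SE 0.71), also called higher. Whether the exact 0 is a failed estimate was not tested. The receptor chains of oncostatin M were near 0 in these cells: Osmr was listed at 0 in the knockdown and in the maturing control and at 0.00473 FPKM in the proliferating control, and Il6st, the shared signalling chain, was at 0.0588 FPKM or less.

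Levels of cell type markers moved with some of these genes. All 10 erythroid markers were detected in each library, with summed levels of 265, 248 and 332 FPKM in the proliferating control, the knockdown and the maturing control. All 10 were tested in both comparisons with the proliferating control, in which 9.05% and 1.75% of all tested genes were called. Of the 10, 2 were called lower in the knockdown and 2 higher in the maturing control. Those called lower were Alas2, at 4.55 and 0.0900 FPKM, and Spna1, at 4.84 and 0.124 FPKM in the proliferating control and the knockdown. Those called higher were Slc4a1, at 0.792 and 2.34 FPKM, and Rhd, at 14.4 and 41.9 FPKM in the proliferating control and the maturing control. The median log2 ratio of FPKM + 1 of the erythroid markers was -0.80 in the knockdown and 0.43 in the maturing control, beside the lower and higher values of Epor, Pim1 and Fam132b in those libraries. In each comparison 2 of the 10 went the other way. In the knockdown they were Rhag, at 77.9 and 119 FPKM, and Gata1, at 52.8 and 61.1 FPKM in the proliferating control and the knockdown. The erythroid marker Tfrc is also on the list of other STAT5 targets used below. The 11 mast cell and basophil markers summed to 71.0, 502 and 38.1 FPKM, with Mcpt8 at 0 in the proliferating control. Of the 11, 10 were tested in each of these comparisons. Of those, 8 were called higher in the knockdown and 4 lower in the maturing control, beside the Osm level that reached 4.61 FPKM in the knockdown alone. Megakaryocyte and platelet markers summed to 34.1, 59.0 and 13.9 FPKM, with Ppbp at 0 in every library and Pf4, Gp1bb and Vwf at 0 in the proliferating control. Of these 8 markers, 5 were tested in the knockdown and 3 called higher, and 4 were tested in the maturing control and 1 called lower. The 11 granulocyte, monocyte and macrophage markers with a row summed to 4.85, 11.9 and 5.08 FPKM, with Lyz2 and Elane at 0 in every library and Fcgr3, at 3.59 and 10.4 FPKM in the proliferating control and the knockdown, holding most of the sum in both. Of these 11, only 4 were tested in the knockdown and 2 called higher, Fcgr3 and Itgam, the latter at 0 and 0.124 FPKM. In the maturing control 3 were tested and none was called. Lymphocyte markers summed to at most 0.118 FPKM, with Cd4 and Nkg7 at 0 in every library. Fibroblast, endothelial and hepatocyte markers summed to at most 0.0264 FPKM, with Cdh5, Alb and Ttr at 0 in every library. The part of mast cell, megakaryocyte and erythroid genes in the results for Osm, Epor, Pim1 and Fam132b was not tested.

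**Figure D3:**
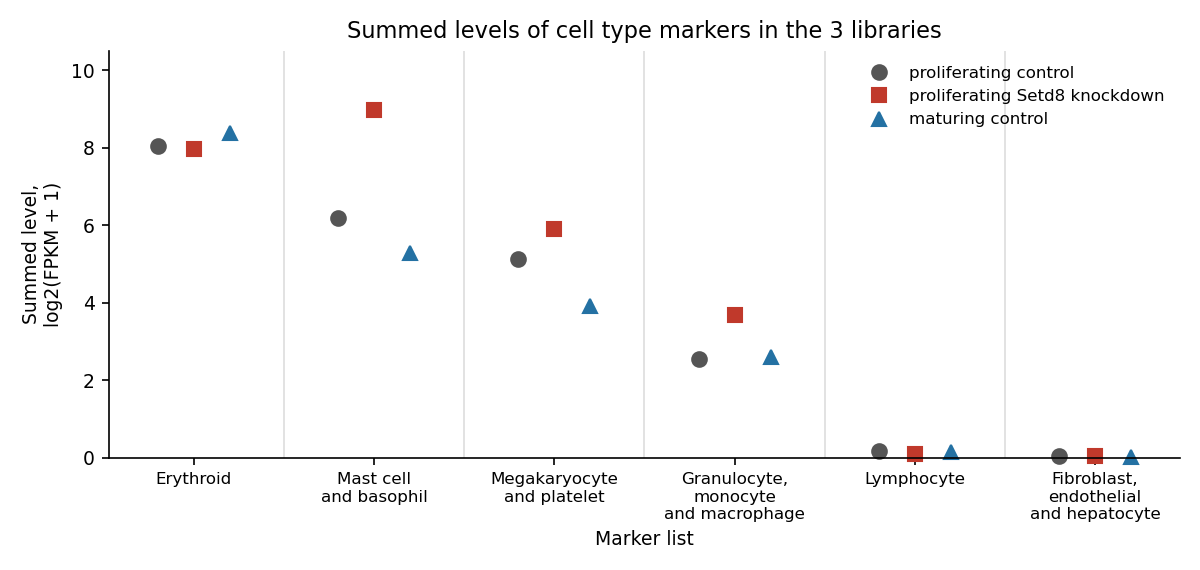
Summed level of each list of cell type markers, as log2 of the summed FPKM + 1 on the vertical axis, in the 3 libraries (1 point per library). Mast cell and basophil markers reach 502 FPKM in the knockdown against 71.0 FPKM in the proliferating control, while lymphocyte markers stay at or below 0.118 FPKM.

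Other genes of the pathway, 77 entries in 6 lists of which 76 had a row, held few calls in the maturing control. Of 60 tested in the knockdown, 5 were called higher and 3 lower, which is 13.3% beside 9.05% of all genes. Of 58 tested in the maturing control, none was called higher and 1 lower, 1.72% beside 1.75%. With maturation the lists thus held calls at about the rate of all genes. Between the knockdown and the maturing control, 5 of 46 tested were called higher and 4 lower, 19.6% beside 11.6%, both over the incomplete rows of that pair. Their median log2 ratio of FPKM + 1 was 0.00 in the knockdown and -0.01 in the maturing control.

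Among the other JAK and STAT genes, Jak3, the kinase of the common gamma chain receptors, was called higher in the knockdown, at 0.730 and 2.79 FPKM (log2 ratio 1.94, SE 0.56, q 0.00899). It was the 1 call among 6 tested in that list. The other negative regulators of cytokine signalling had no call among 15 tested in either comparison with the proliferating control. Socs1, an inhibitor that acts on the JAK kinases, had the largest difference among them in the knockdown, at 11.0 and 26.6 FPKM, without a call (log2 ratio 1.27, SE 0.50, q 0.127). Socs1 was thus more abundant than Cish, Socs2 and Socs3 in the proliferating control and in the knockdown.

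Among adaptors and parallel branches of the receptor, Gab1, a docking protein, was called higher in the knockdown, at 0.0136 and 1.61 FPKM, the 1 call among 16 tested. Lyn, a Src-family kinase that associates with the receptor, was called lower in the maturing control, at 10.9 and 3.94 FPKM (log2 ratio -1.46, SE 0.46, q 0.0245). Between the knockdown and the maturing control, Gab1 and Lyn were called higher in the knockdown and Shc1, an adaptor that links receptors to Ras, lower, at 9.67 FPKM against 24.6 FPKM (q 0.0171). Other STAT5 targets had 2 calls of 13 tested in the knockdown, both lower. They were Ccnd2, the cyclin D2 gene, at 8.75 and 1.83 FPKM (log2 ratio -2.26, SE 0.47), and Trib3, a pseudokinase gene, at 2.53 and 0.393 FPKM (log2 ratio -2.69, SE 0.55). In the maturing control none of these 13 was called. Podxl, a sialomucin gene that responds to erythropoietin, had the largest value there, at 20.1 and 39.9 FPKM (log2 ratio 0.99, SE 0.38, q 0.110). It stood at 8.97 FPKM in the knockdown and was called lower there than in the maturing control (log2 ratio -2.15, SE 0.39).

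The other cytokine receptors had 4 calls among 5 tested in the knockdown. Csf2rb encodes the beta chain shared by the interleukin-3, interleukin-5 and GM-CSF receptors, and Csf2rb2 the beta chain of the mouse interleukin-3 receptor alone. These receptors also signal through Jak2 and STAT5. Their transcripts went from 114 to 406 FPKM and from 117 to 435 FPKM. These copies are similar, so the split between them is uncertain, and both were called higher. Il3ra, at 0.0529 and 0.381 FPKM, was called higher and Il2rg, at 0.166 and 0.0110 FPKM, lower, both at levels below 1 FPKM. Epor, with 17.6 and 8.58 FPKM, thus had a lower level than both beta chain genes in these libraries. Kit, at 58.0 FPKM in the proliferating control and 25.5 FPKM in the maturing control, was not called there because the authors' test failed for it. Its own level with the Setd8 shRNA is not given here, so no direction is stated for Kit in that library. All 13 receptors of the list, Kit included, summed to 291 FPKM in proliferating control cells, 965 FPKM with the Setd8 shRNA and 153 FPKM after maturation. Genes of receptor trafficking had no call among 5 tested in either comparison with the proliferating control.

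**Figure D4:**
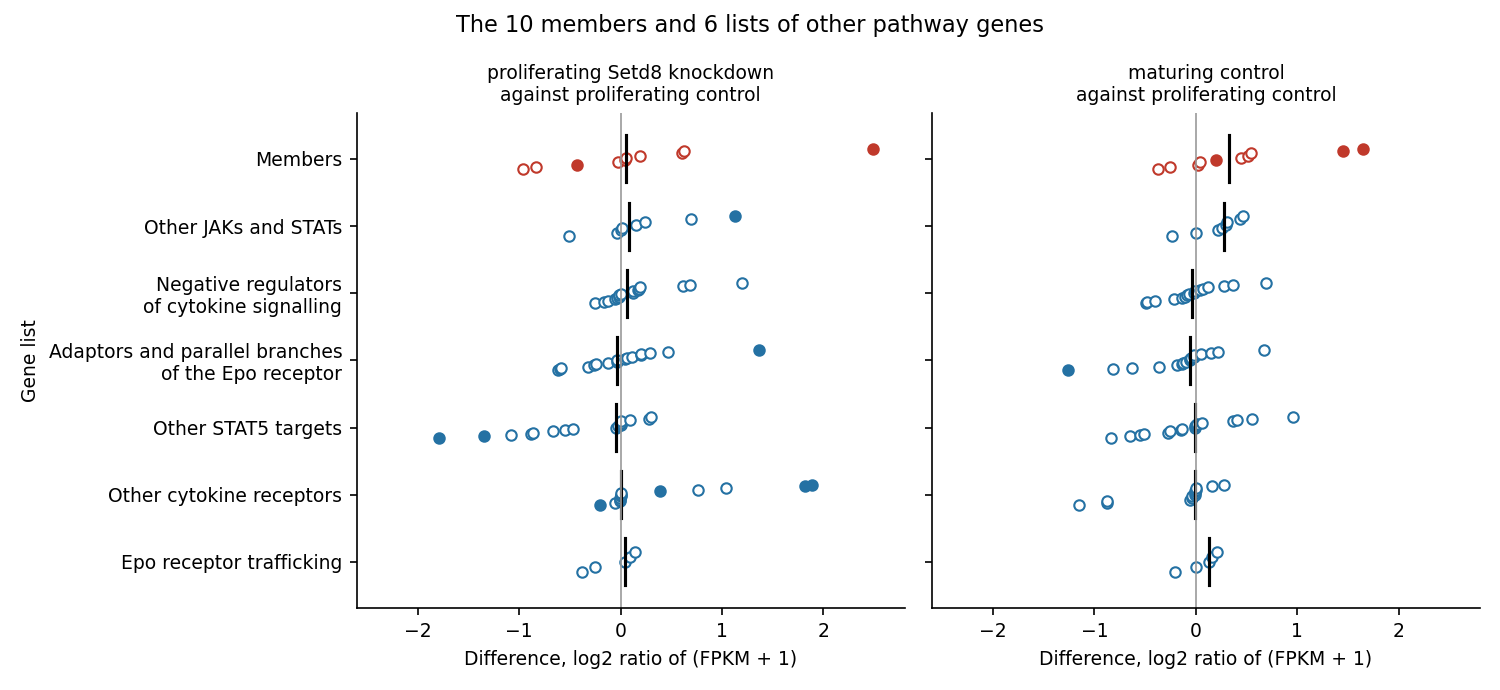
Log2 ratio of FPKM + 1 (horizontal axis) for the 10 genes and 6 lists of other pathway genes against the proliferating control, 1 point per gene, filled where called, with the list's median as a black bar. The 10 genes have a median of 0.32 in the maturing control, where 3 of the 9 tested are filled. Of the 13 other STAT5 targets tested, none is filled there and 2 are in the knockdown. Among all tested genes, 1.75% were called in the maturing control and 9.05% in the knockdown.

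The genes most like each called gene in their log2 ratios of FPKM + 1, over the 2 comparisons with the proliferating control and among genes of like mean level, were found by distance. For Epor they were Ermap, Pim1 and Fech, at distances of 0.08, 0.13 and 0.13 among 2833 candidates. For Pim1 they were Arrb1, Epor and Slc39a8, at 0.03, 0.13 and 0.14. Epor and Pim1 were thus each in the other's nearest 3. For Fam132b the nearest were Rgs12 at 0.11 and Fn3k at 0.25, with the small RNA gene Snora30 at 0.44. For Cish the nearest, Slc25a37, was at 0.34, so no gene of like level lay as close to it as to Epor or Pim1. Only 1.67% of the 9612 genes had a ratio of at least 1 in either direction in the maturing control. Few genes could thus lie near Cish, and its distance is not comparable with those of Epor and Pim1. Osm was nearest to Mir7-1, Lhfp and Stard13, at 0.04, 0.05 and 0.05. These were at 4.61, 4.69 and 4.70 FPKM in the knockdown and at most 0.00408 FPKM in the other libraries. Socs3 was nearest to Atp2b3, Tex2 and Fancc, at 0.01, 0.01 and 0.03. Their levels, 0.833 to 0.978 FPKM in the proliferating control and 1.12 to 1.30 FPKM in the maturing control, were well above those of Socs3, 0.0286 and 0.183 FPKM. Ratios of FPKM + 1 are flattened at such levels, so this likeness says little of Socs3. With 3 libraries such likeness is a description of these libraries.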

How the data were processed

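RNA-seq was done on total RNA of cultured erythroblasts, in 4 groups of 1 sample per the labels. The authors deposited 1 table of pairwise comparisons with the column layout of Cuffdiff. Per the submitters' processing notes, the build was mm9 and the tools were FastQC 0.10.1, Cufflinks 2.0.2 and Cuffdiff. No aligner and no annotation is named, and whether libraries were scaled to each other is not given in the sources used here. Its 65535 rows hold 3 comparisons, of which the knockdown against the maturing control covers 19067 of 23234 genes. None of these 3 comparisons involves the maturing knockdown, which was not analysed here. The values per library were read as FPKM as the authors deposited them. The name of the knockdown library was matched to its sample by the target and the number in its title. The deposited p-value and q-value are the authors', with calls exactly at a q of at most 0.05. A standard error was computed as the deposited log2 ratio divided by the test statistic, and 95% intervals as 1.96 of these. No test was run, since each group had 1 library, and with no replicates named in the labels the authors' p-values measure only the spread their model assumes.

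Sizes and medians are log2 ratios of FPKM + 1, which understate the change of low genes. A log2 ratio given with an SE, an interval or a q-value is instead the deposited one, of FPKM with nothing added. Where a library's value differed between comparisons (5 genes, none described here) the higher listing was taken. The genes and lists were chosen with earlier results of these data known. All 10 genes are named, with Setd8 and Gata2. For other pathway lists up to 4 called genes are named per comparison, or the one with the largest size among genes at 5 FPKM or more. Il6st and Osmr, Kit beside the maturing control, and single markers were named after their values were seen. Likeness is the Euclidean distance over the 2 log2 ratios among genes with at least 1 FPKM and a mean log2 level within 1. Alternatives were q under 0.01, a size of 1, pseudocounts of 0.1 and 5, filters at 1 and 5 FPKM, the mean, and 4 other scalings. The reading and counting steps were tested on simulated data. Python 3.11.15, numpy 2.4.6, pandas 2.3.3, scipy 1.17.1 and matplotlib 3.10.9 were used.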

Additional observations from a re-analysis of the deposited data

How the results depend on the processing

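None of the 9 called values of the 10 genes changed sign under the 6 alternative pseudocounts and scalings, and of all 30 values only Stat5b in the knockdown did, going from -0.03 to as much as 0.08. A changed pseudocount cannot turn a sign. The scalings shift the FPKM ratio of every gene in a pair by the same small amount. The signs of the called values were thus not put to a real test. Called sizes, which include a pseudocount and so differ from the deposited ratios given above, moved most with the pseudocount. Osm in the knockdown ranged from 0.94 to 5.56 around 2.49, Fam132b from -1.23 to -0.11 around -0.43 in the knockdown and from 0.70 to 2.54 around 1.65 in the maturing control, and Socs3 in the maturing control from 0.04 to 1.14 around 0.20. With a q under 0.01, or with a size of at least 1 beside the call, 1 gene in place of 2 was called in the knockdown, Osm in both cases. With the same limits 2 genes in place of 3 were called in the maturing control: the stricter q lost Cish (q 0.0121) and the size lost Socs3 (0.20), so only Fam132b passed both. These limits left 3 and 4 genes in place of 4 between the knockdown and the maturing control, where the stricter q lost Pim1 (q 0.0127).

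The median over the genes in the knockdown, 0.05, was 0.19 as TPM and the mean was 0.18. In the maturing control, 0.32, it was 0.52 with a pseudocount of 0.1, 0.17 with one of 5, 0.51 as TPM and 0.45 over genes at 1 FPKM or more or at 5 FPKM or more in a library. The median of the knockdown against the maturing control, 0.01, had no stable sign: it was -0.27 with a pseudocount of 0.1, -0.14 as TPM and 0.17 over genes at 1 or at 5 FPKM or more, and the mean was -0.25. As TPM the values were larger while the added 1 stayed, so that setting also acted as a smaller pseudocount. The cause of the unstable sign was not tested. With other scalings the median ratio of the 4364 genes at 5 FPKM or more in every library moved from -0.09 in the knockdown to between -0.05 and 0.02. No paired analysis was possible because each group had 1 library. Depth is unknown, which limits what can be said of Socs3, Osm and Fam132b at their lowest levels.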
